A study of Mus musculus with 35 samples.

Results

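The genes described here are 10 that encode glycolytic enzymes, Hk1, Hk2, Aldoa, Tpi1, Gapdh, Pgam1, Eno1, Eno2, Pkm and Ldha, out of 21887 protein-coding genes that the mouse annotation places on the 19 autosomes and the sex chromosomes. They were named by symbol, and all 10 were found in the RefSeq gene table of GRCm38.p6, the patched form of the mm10 assembly. For each of them, every peak of tagged NELFA was collected whose summit lay inside the gene or within 5 kb of it. A summit that lay at most 1 kb from the annotated end or beginning of the gene was called a boundary peak, one deeper in the gene an interior peak, and one 1 to 5 kb outside it a flanking peak.

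NELFA is a subunit of the negative elongation factor, which binds RNA polymerase II shortly after it has begun transcription and holds it there until it is released into the gene. Glycolysis splits glucose into pyruvate. Hexokinases trap glucose as glucose 6-phosphate, aldolase and triose phosphate isomerase turn the hexose into glyceraldehyde 3-phosphate, and glyceraldehyde-3-phosphate dehydrogenase, phosphoglycerate mutase, enolase and pyruvate kinase carry it to pyruvate, which lactate dehydrogenase can reduce to lactate. Mouse embryonic stem cells are known for a high rate of glycolysis, and 2-deoxyglucose (2-DG), the sugar analogue given to the NELFA reporter cells in other arms of the study, is phosphorylated by hexokinase and blocks the pathway at its first steps.

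The chromatin came from E14 mouse embryonic stem cells kept in medium with serum, LIF and the 2i inhibitors and carrying a transgene for NELFA with a Strep-HA tag, followed by P2A and EGFP, that was switched on with doxycycline at 0.4 µg/ml for 16 h. The ChIP-seq set comprised 7 libraries, of which 3 were precipitated with a first HA antibody, 1, from the third replicate, with a second HA antibody, and 3 were inputs of induced cells. For these 7 libraries there is 1 peak list, and which of them entered it, and how, is not stated. No ChIP library came from cells without doxycycline or from cells given 2-DG, so binding of tagged NELFA and signal present without it cannot be told apart, and no response of these genes to 2-DG can be read from the peaks. The tagged protein was made from a transgene, and how many clones the line comprised is not given in the sources used here. The labelled cell type could not be checked against marker levels, because the list holds no expression values, and the 20 RNA-seq and 8 ATAC-seq libraries of the series were not analysed here.

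The list held 59485 peaks, 58625 of them on these chromosomes. It has no value for any single library and no read depth, so no value below has a replicate error and no difference between genes was tested. Fold enrichment is the linear ratio that the authors' peak caller gave each peak. Its median over the list was 2.09, and 98.2% of the values fell on whole multiples of 0.0454, within 0.02 of a step, so that this step is the smallest difference the list can express between most peaks.

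The list held a peak at a listed transcription start of 7 of the 10 genes, with summits at −5 to 200 bp (positive downstream). Of the genes with such a peak, Gapdh had the highest fold (4.99), followed by Pkm and Pgam1 (3.81 and 3.77, within 1 step of the list), Aldoa (2.63), Hk2 and Eno1 (2.31 each) and Ldha (2.04). Tpi1 and Eno2 had peaks only away from their starts, with folds of at most 1.95 inside the gene, and Hk1 had none at all. Counted by boundaries, 6 of the 10 genes had a peak within 1 kb of an end, where 18.8% of all protein-coding genes did. Counted by starts listed in the RefSeq promoter table, 7 of 10 had a summit within 1 kb, where 18.6% of the 17492 protein-coding genes with a listed start did. All 7 of these summits lay within 250 bp of a start, where 14.5% of those genes had one. Members had more listed starts per gene, 17 for the 10 beside 21263 for the 17492, and so more windows in which a summit could fall. Aldoa had no summit within 1 kb of its outermost start. The genes were chosen with earlier results of this list known, and these shares are descriptions.

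**Figure D1:**
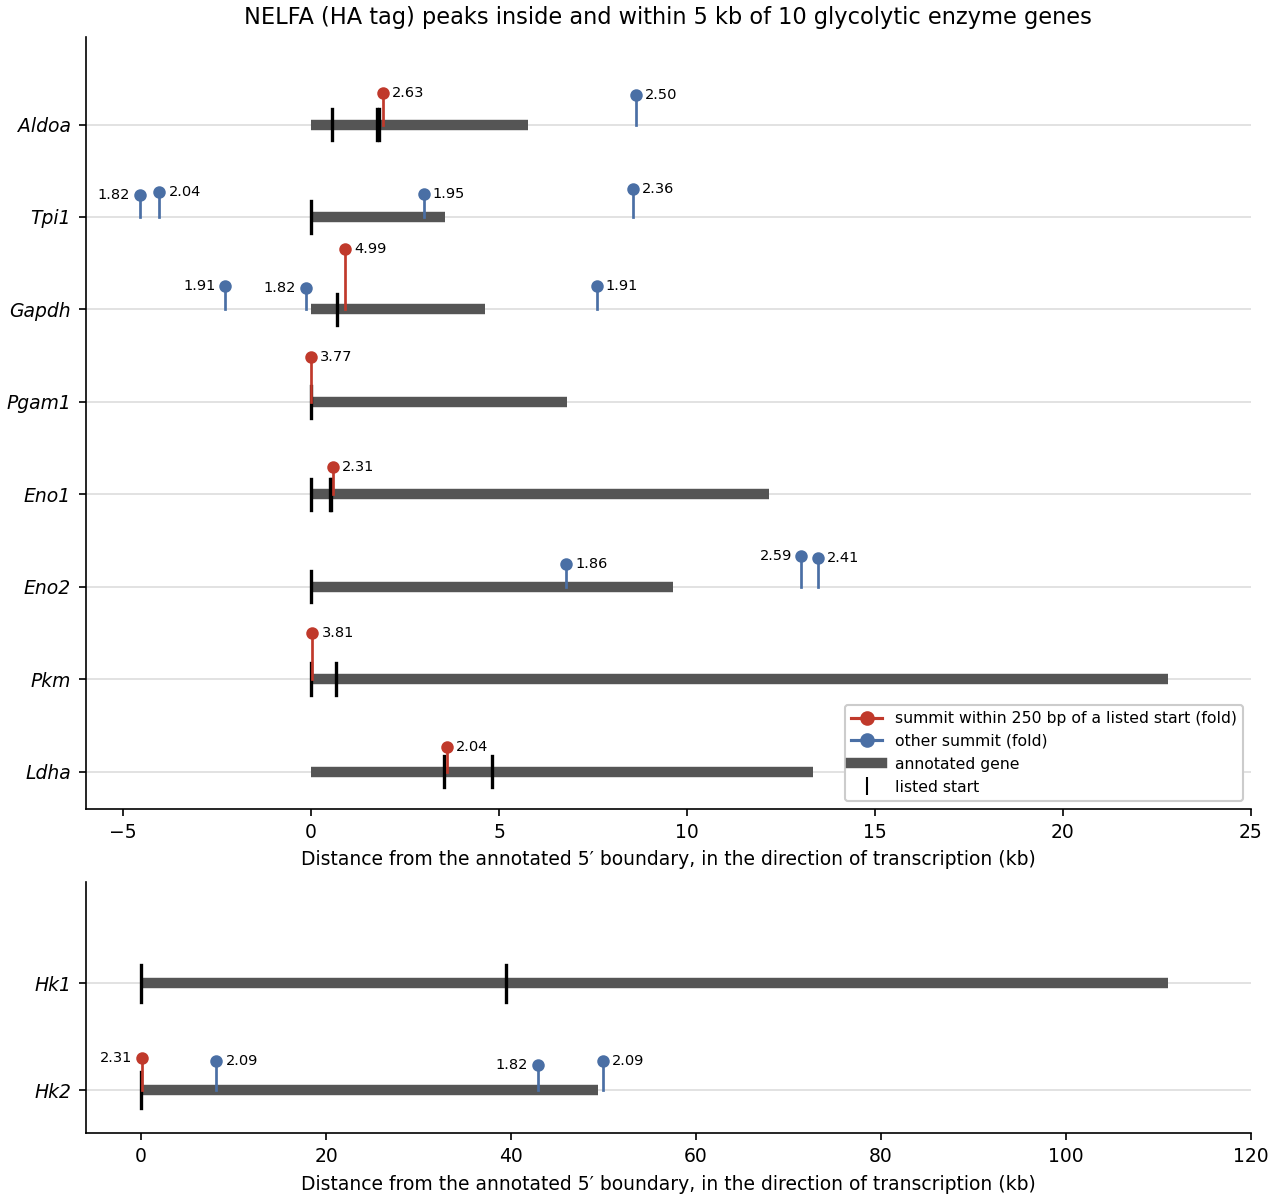
Map of the peaks at the 10 genes. Each grey bar is a gene drawn from its annotated 5′ boundary in the direction of transcription (x axis, kb; the hexokinase genes have their own scale), black ticks are listed starts, and each pin is a summit whose height and label give its fold enrichment. The 7 red pins stand within 250 bp of a listed start, the 14 blue pins elsewhere, and Hk1 carries no pin.

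The promoters below are shown because the summits turn on where transcription starts. They are the RefSeq promoter sequences of GRCm38.p6, 5′ to 3′ on the gene's strand, with 250 bases before the start and 50 from it on. Gapdh, Pkm and Pgam1 had the strongest peaks, Aldoa and Ldha had summits deep inside the annotated gene but beside a listed start, and Tpi1 had no summit near its start. Capitals mark matches, on either strand, to 4 short motifs that were searched, namely the GC box GGGCGG, the CCAAT box, the TATA box TATAAA and the hypoxia core ACGTG, and to the longer CACGTG, which contains ACGTG on both strands.
Gapdh, chr6:125165724-125166023, minus strand: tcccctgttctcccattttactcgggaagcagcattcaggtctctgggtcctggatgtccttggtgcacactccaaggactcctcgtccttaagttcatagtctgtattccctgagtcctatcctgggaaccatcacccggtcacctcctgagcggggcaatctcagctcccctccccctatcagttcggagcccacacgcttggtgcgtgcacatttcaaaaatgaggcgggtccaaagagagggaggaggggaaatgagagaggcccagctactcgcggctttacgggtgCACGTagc
Pkm, chr9:59656326-59656625, plus strand: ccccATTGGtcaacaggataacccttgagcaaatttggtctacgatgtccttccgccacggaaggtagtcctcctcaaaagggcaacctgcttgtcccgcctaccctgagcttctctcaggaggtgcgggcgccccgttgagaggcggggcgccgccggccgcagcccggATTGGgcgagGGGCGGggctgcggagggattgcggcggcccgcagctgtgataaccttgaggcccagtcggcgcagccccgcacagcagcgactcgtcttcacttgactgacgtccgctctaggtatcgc
Pgam1, chr19:41911621-41911920, plus strand: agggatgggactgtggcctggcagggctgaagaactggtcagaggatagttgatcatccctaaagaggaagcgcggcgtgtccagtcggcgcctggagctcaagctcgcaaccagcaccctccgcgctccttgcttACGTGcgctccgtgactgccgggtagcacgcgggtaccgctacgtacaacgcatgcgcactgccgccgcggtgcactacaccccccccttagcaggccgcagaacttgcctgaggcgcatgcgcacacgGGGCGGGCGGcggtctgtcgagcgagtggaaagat
Aldoa, chr7:126799129-126799428, minus strand: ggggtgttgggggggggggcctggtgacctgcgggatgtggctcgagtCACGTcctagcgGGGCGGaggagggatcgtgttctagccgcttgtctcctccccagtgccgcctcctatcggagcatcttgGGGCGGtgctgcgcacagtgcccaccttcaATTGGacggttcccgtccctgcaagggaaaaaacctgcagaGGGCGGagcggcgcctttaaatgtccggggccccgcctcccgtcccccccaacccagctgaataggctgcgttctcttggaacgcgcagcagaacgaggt
Ldha, chr7:46845554-46845853, plus strand: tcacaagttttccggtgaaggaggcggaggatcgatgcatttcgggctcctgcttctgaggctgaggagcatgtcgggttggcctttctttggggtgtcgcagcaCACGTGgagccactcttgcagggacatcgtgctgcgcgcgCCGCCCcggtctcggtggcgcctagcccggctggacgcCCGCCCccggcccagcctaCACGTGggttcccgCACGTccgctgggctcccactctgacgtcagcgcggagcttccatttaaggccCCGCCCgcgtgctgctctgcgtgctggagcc
Tpi1, chr6:124814109-124814408, minus strand: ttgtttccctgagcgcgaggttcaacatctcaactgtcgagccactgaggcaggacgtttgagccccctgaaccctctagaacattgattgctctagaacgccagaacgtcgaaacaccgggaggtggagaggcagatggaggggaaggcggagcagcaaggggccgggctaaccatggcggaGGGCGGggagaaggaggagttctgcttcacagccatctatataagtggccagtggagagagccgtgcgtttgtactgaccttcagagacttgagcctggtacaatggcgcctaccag

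The 2 hexokinase genes, whose enzymes take the first step of the pathway, differed in their peaks, with 4 at Hk2 and 0 at Hk1. Hk2, the isoform known from muscle and from many growing cells, spans 49430 bp on the minus strand of chromosome 6 (82725025 to 82774454). The strongest of its peaks, of fold 2.31 and 174 bp wide (82774292 to 82774465), had its summit 46 bp downstream of the listed start. Of the other 3, 2 lay in the interior, with folds of 2.09 at 8.1 kb and 1.82 at 42.9 kb from the start, and 1 of fold 2.09 lay 507 bp beyond the 3′ boundary. Hk1, the broadly expressed isoform, spans 111066 bp of chromosome 10 (62268855 to 62379920) and has 2 listed starts. Neither start, nor the gene, nor the 5 kb on either side held a summit, and the nearest summit outside the gene was 69.7 kb away. Genes of like length without any peak were common, since 226 of the 503 others of 100 to 120 kb (44.9%) had none inside or within 5 kb.

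Aldoa, the gene of fructose-bisphosphate aldolase A, occupies 5761 bp on the minus strand of chromosome 7 (126795234 to 126800994). Its own peak (126798947 to 126799200) had a fold of 2.63 and counted as interior, since the summit was 1912 bp inside the annotated 5′ boundary. The promoter table lists 3 starts for the gene, and the summit lay 96 bp downstream of the innermost one. A second peak, of fold 2.5, stood 2869 bp beyond the 3′ boundary of Aldoa. It lay inside the neighbouring gene Ppp4c, the catalytic subunit of protein phosphatase 4, with its summit 1 bp upstream of a listed start of that gene. Both peaks near Aldoa were thus at starts, one of Aldoa and one of its neighbour.

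Tpi1 encodes triose phosphate isomerase and is the shortest of the 10 genes (3573 bp on the minus strand of chromosome 6, 124810586 to 124814158). No summit lay within 1 kb of its start. Its boundary peak was weak and narrow, with a fold of 1.95 and a width of 60 bp, and stood at the other end of the gene, 580 bp inside the 3′ boundary and 547 bp from a boundary of the adjoining gene Spsb2. The 3 flanking peaks had folds of 2.36, 2.04 and 1.82, the last 2 of them inside the gene Usp5, and the first lay 4984 bp outside Tpi1, just within the 5 kb limit. The next summit beyond that limit was 12.16 kb away and had a fold of 2.13.

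Gapdh, which encodes glyceraldehyde-3-phosphate dehydrogenase, had the strongest peak of the 10 genes. It occupies 4616 bp on the minus strand of chromosome 6 (125161852 to 125166467). The peak spanned 730 bp (125165007 to 125165736) with a fold of 4.99 and a −log10 q of 38.4, and its summit lay 200 bp downstream of the listed start, the farthest of the 7. The annotated 5′ boundary of Gapdh lies 694 bp upstream of that start, so the same summit was 894 bp inside the gene. A second boundary peak, 148 bp outside the gene, had a fold of 1.82 and a −log10 q of 1.56, close to the lowest value in the list (1.31). The 2 flanking peaks, of fold 1.91 each, lay inside the neighbouring genes Iffo1 and Ncapd2.

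Pgam1, the gene of phosphoglycerate mutase 1, lies on the plus strand of chromosome 19 (41911871 to 41918665). Its single peak (41911728 to 41912190) was 463 bp wide and had a fold of 3.77 and a −log10 q of 20.7. The summit lay 5 bp upstream of the start. No other summit lay between 5 and 55 kb outside the gene.

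The 2 enolase genes also differed. Eno1, the gene of the widely expressed enolase, lies on the plus strand of chromosome 4 (150236708 to 150248879) and had 1 peak (150237219 to 150237357) of fold 2.31 and 139 bp. This summit was 580 bp inside the gene but 64 bp downstream of the innermost of 3 listed starts. Eno2, the gene of the enolase known as a marker of neurons, lies on the minus strand of chromosome 6 (124760053 to 124769673) and had no summit within 1 kb of its start or of either boundary. Its interior peak, 6.8 kb downstream of the start, had a fold of 1.86. The 2 flanking peaks had folds of 2.59 and 2.41 and stood 143 and 289 bp from a boundary of the gene Atn1, closer to it than to Eno2.

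Pkm, the gene of the muscle-type pyruvate kinases, occupies 22797 bp on the plus strand of chromosome 9 (59656576 to 59679372). Its only peak was the widest of the set, at 852 bp (59656436 to 59657287), with a fold of 3.81 and a −log10 q of 21.3. The summit lay 31 bp downstream of the first of 2 listed starts, and the interval reached past the second, 651 bp farther on. The same summit was 701 bp from the start of the long noncoding RNA gene Gm51708, so by boundaries the peak was shared with that gene. Outside the gene, the next summit was 39.2 kb away.

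Ldha, the gene of the lactate dehydrogenase subunit that predominates in glycolytic tissues, lies on chromosome 7 (46842274 to 46855627). It had a single peak (46845787 to 46845960), 174 bp wide, whose fold of 2.04 was the lowest of the 7 at a start. The summit counted as interior, 3604 bp inside the annotated gene, and lay 74 bp downstream of the first of 2 listed starts. The nearest summit outside the gene was 64.1 kb away.

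The members' folds were compared with those of other genes only within the list. Among the 4121 protein-coding genes with a boundary peak, whose median fold was 2.22, Gapdh was in place 144, Pkm in place 349 and Pgam1 in place 358, above 96.4%, 91.3% and 90.7% of them. Pkm and Pgam1 lay 1 step of the list apart and cannot be ordered. Eno1 and Hk2 were above 55.3% and Tpi1 above 15.6%. Genes with the same rounded boundary fold as Gapdh (4.99), in alphabetical order around it, were Cep95 and Ddx5 before it, and Gm40881 and Hsp90ab1 after it. Beside Pkm at 3.81 stood Gm13289, Gm3050, Ranbp3 and Rnf19b, and beside Pgam1 at 3.77 stood Nop56, Odc1, Rplp1 and Rsrc2. Aldoa and Ldha had no boundary peak, and their start peaks were above 70.8% and 26.4% of the 3260 start peaks of protein-coding genes.

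**Figure D2:**
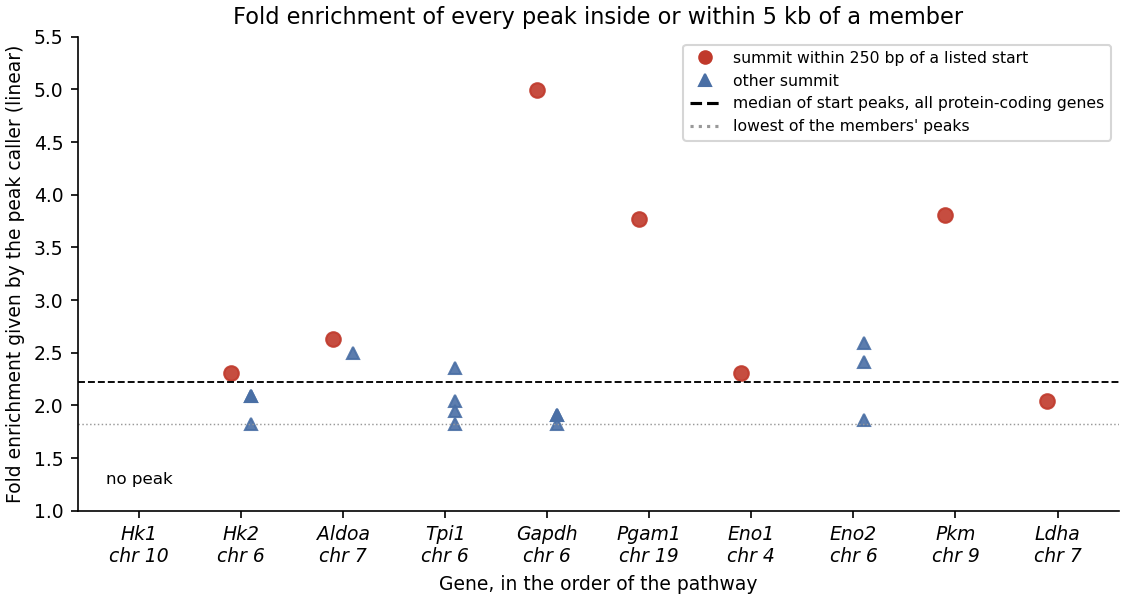
Fold enrichment of all 21 peaks inside or within 5 kb of the 10 genes (y axis, linear ratio from the peak caller), by gene in the order of the pathway (x axis). Circles are summits within 250 bp of a listed start and triangles are other summits, and equal folds overlap. The dashed line is the median of the start peaks of all protein-coding genes (2.22), and the dotted line is the lowest fold shown (1.82). The highest folds are those at the starts of Gapdh, Pkm and Pgam1.

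The start summits kept to a narrow stretch. In order of position they lay at −5 bp (Pgam1), 31 bp (Pkm), 46 bp (Hk2), 64 bp (Eno1), 74 bp (Ldha), 96 bp (Aldoa) and 200 bp (Gapdh) from the nearest listed start, with positive values downstream. Their median was 64 bp, and 6 of 7 were downstream. Over the 3260 protein-coding genes with a summit within 1 kb of a start, the median position was 74 bp with quartiles of −61 and 160 bp, and 69.5% were downstream. Of those genes, 1680 (51.5%) had their strongest start summit between −5 and 200 bp. These limits are the members' own lowest and highest positions, so all 7 members lie within them by construction. In 50 bp bins, the list as a whole was densest from 50 to 100 bp (600 genes), where Eno1, Ldha and Aldoa lay. Pkm and Hk2 lay in the bin from 0 to 50 bp (359 genes). Pgam1 lay in the less filled bin from −50 to 0 bp (154 genes). Gapdh stood at the edge between the bins from 150 to 200 bp (261 genes) and from 200 to 250 bp (135 genes).

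**Figure D3:**
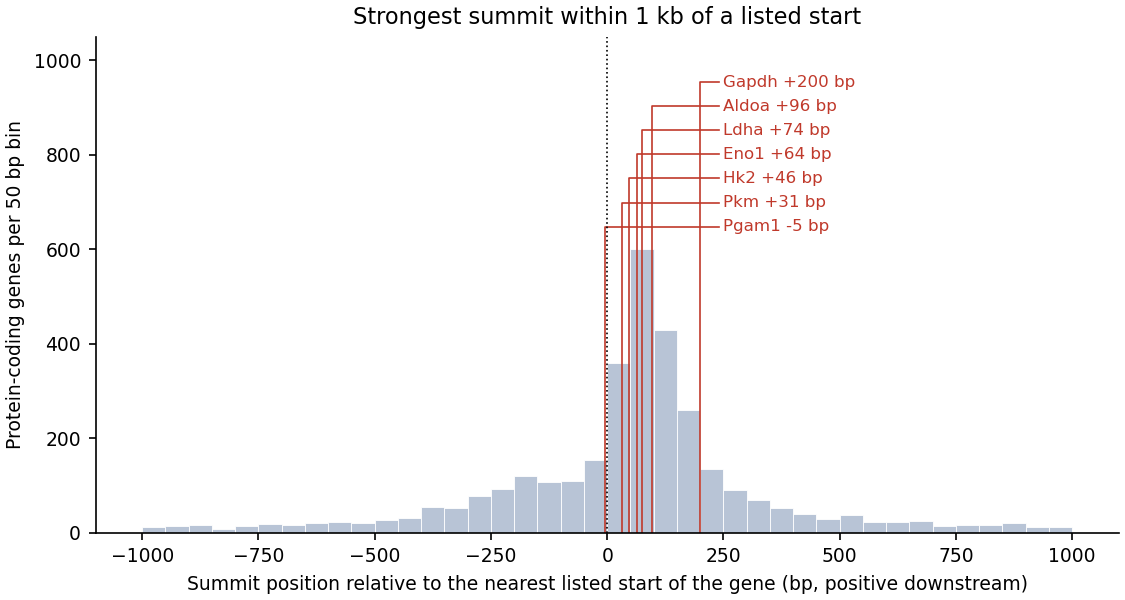
Position of the strongest summit within 1 kb of a listed start, for 3260 protein-coding genes in 50 bp bins (grey bars; x axis in bp, positive downstream; y axis number of genes). Red lines mark the 7 members with such a summit, from −5 bp at Pgam1 to 200 bp at Gapdh, and those of 6 genes lie downstream.

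The use of listed starts changed how some members were classed. Aldoa and Ldha, each with an interior but no boundary peak, were found at a start, and Tpi1, with a boundary peak, was not. Over all protein-coding genes with a listed start, 297 of the 2308 with an interior but no boundary peak (12.9%) had a summit within 1 kb of a start, and 386 of the 3349 with a boundary peak (11.5%) had none there.

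Peaks away from the starts were weaker, narrower and nearly all on 1 chromosome. Of the 21 peaks around the 10 genes, 8 were boundary, 5 interior and 8 flanking peaks. The 7 at a start had folds of 2.04 to 4.99 and a median width of 254 bp, and the other 14 had folds of 1.82 to 2.59, with a median of 2.0, and a median width of 142 bp. Of these 14, 13 belonged to the 4 members on chromosome 6, Gapdh, Hk2, Eno2 and Tpi1, and the remaining one was the peak at the start of Ppp4c beside Aldoa. The 6 members on other chromosomes had 6 peaks in all, 5 of them at their own starts.

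Chromosome 6 carried more peaks than most. It held 55.5 peaks per Mb, the second highest density after chromosome 8 (59.9), where the median chromosome had 14.7, and its median fold was 2.0. Between 5 and 55 kb outside the gene, the 4 members there had 15 to 20 peaks and the 6 others 0 or 1, with a median of 1 over all protein-coding genes. On chromosome 6, 3 of the 4 members had a boundary peak, where 43% of the protein-coding genes of that chromosome did, and 2 of 4 had a start peak, where 39.4% did. All 4 had some peak inside or within 5 kb, where 76.7% did. Elsewhere, 3 of 6 members had a boundary peak, where 15.4% of the protein-coding genes outside chromosomes 6 and 8 did, and 5 of 6 had a start peak, where 15.7% did. Some peak inside or within 5 kb was found at 5 of these 6 members, where 31.8% of those genes had one. Whether the density of chromosome 6 plays a part in the weak peaks there was not tested. The fold of 4.99 at Gapdh was higher than that of 97% of all peaks in the list.

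**Figure D4:**
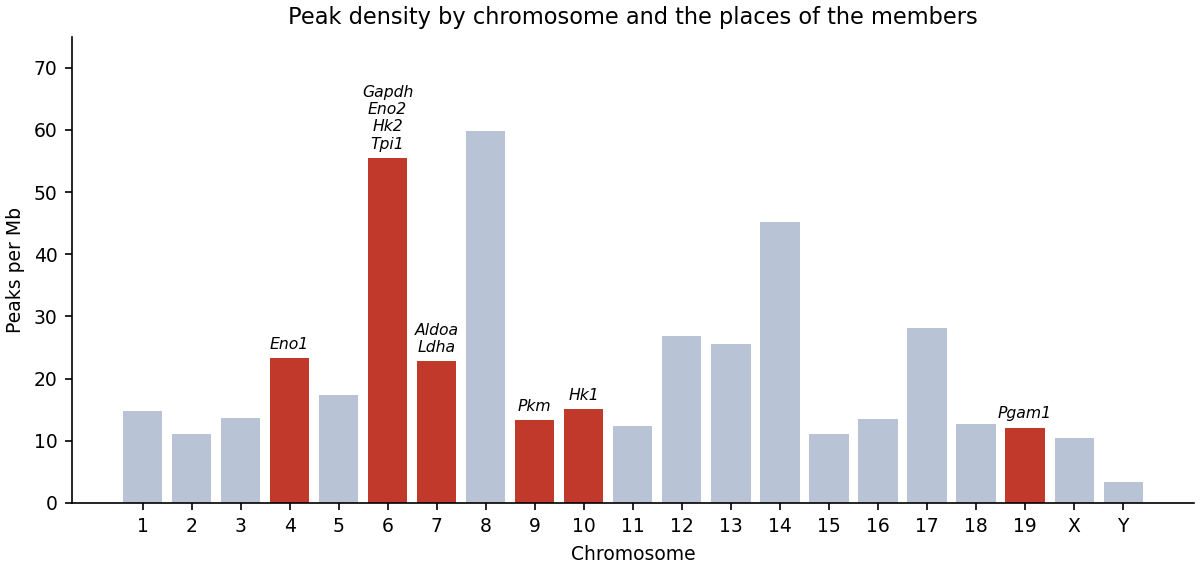
Peaks per Mb on each chromosome (y axis; bars start at 0), with chromosomes that hold a member in red and the members' names above them. Chromosome 6, with 4 of the 10 genes, has 55.5 peaks per Mb, and the chromosomes of the other 6 genes have 12.1 to 23.3.

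Taking any peak inside or within 5 kb, 9 of the 10 genes had one, where 36.9% of all protein-coding genes did. In windows 5 to 7 kb outside the gene, Hk2 had summits of fold 2.68 at 5.61 kb and of fold 2.36 at 6.37 kb, Eno2 had one of fold 1.91 at 6.54 kb, and the other 8 members had none, where 8.6% of protein-coding genes had one.

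The promoter table lists 17 starts for the 10 genes, and 9 of them, in 7 genes, had a summit within 250 bp. Some of the promoters overlap, such as those of the inner starts of Eno1 and of Aldoa, so they are not independent. The 300 bases around those 9 starts held 56.7 to 69% GC (median 65.7%) and 12 to 30 CpG sites. The 8 starts without a near summit held 51.3 to 63.3% GC (median 56.9%) and 0 to 23 sites, so the ranges overlapped. The median of the 21263 promoters of protein-coding genes was 56.3% and 13 sites. The inner start of Hk1, with 63.3% GC and 20 sites, and the second of Pkm, with 61.3% and 23, were GC-rich without a summit within 250 bp. The second start of Pkm was still covered by the interval of the Pkm peak.

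The GC box was found at 8 of the 9 starts with a near summit and at 1 of the 8 without, where 46.2% of all these promoters held it. Gapdh had none. The contrast between genes depended on which start was taken. With the outermost start of every gene, the box was at 4 of the 7 genes with a start peak and at 1 of the 3 without. ACGTG, the core of sites known to be bound by hypoxia-inducible factors, was at 6 of 9 and 2 of 8 starts, where 20.9% held it. The CCAAT box was at 6 of 9 and 1 of 8, where 38.2% held it, and TATAAA at 0 of 9 and, in Eno2, at 1 of 8, where 12.6% held it. With the outermost start of every gene, ACGTG was at 4 of the 7 genes with a start peak and 0 of the 3 without. By the same rule CCAAT was at 3 of 7 and 0 of 3, and TATAAA at 0 of 7 and 1 of 3. In Ldha, 5 matches to ACGTG were found, 4 of them within 2 copies of CACGTG, the E-box that MYC binds, starting 145 and 48 bases before the start, and 7.84% of all promoters held CACGTG. These matches describe letters in a window of 300 bases and not bound sites.

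Processed copies can share reads with their parent gene. Of 18 annotated pseudogenes whose symbol or synonym is that of a copy of a member, 7 for Tpi1, 3 each for Gapdh, Aldoa and Ldha and 2 for Pgam1, none had a summit inside or within 1 kb, where 8.32% of the 9944 annotated pseudogenes did. Copies without such a symbol or synonym were not covered by this search.

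The other enzymes of the pathway were seldom marked. Of 18 further genes of glycolytic enzymes, 1 had a boundary peak (5.56%, where 18.8% of all protein-coding genes did). It was Pfkl, which encodes the liver-type phosphofructokinase, whose peak had a fold of 2.27 and lay 153 bp downstream of its start. In 2 others the only peaks lay in the interior, and 14 had none inside or within 5 kb, among them Aldoc and Eno4. Pgk1, the phosphoglycerate kinase gene, was among the 14 and lies on the X chromosome, where 2.17% of the protein-coding genes had a boundary peak. The 18 include genes known for expression in testis or muscle, such as Pgk2 and Pgam2. Over all 28 enzymes of the pathway together, 7 had a boundary peak (25%), and 8 of the 26 with a listed start had a start peak (30.8%). Of all protein-coding genes with a listed start, 18.6% had a start peak. That share was 39.4% on chromosome 6 and 54.5% on chromosome 8, and 5 of the 28 lie on chromosome 6 or 8.

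Among genes that feed the pathway or lead out of it, the shares with a boundary peak ran from 13.3% to 50% by list. Of all protein-coding genes, 18.8% had one. For transport of glucose and lactate, 3 of 8 genes had a boundary peak (37.5%). These were Slc16a1, a monocarboxylate transporter that carries lactate (3.13), Bsg, its chaperone at the membrane (2.09), and Slc2a1, a glucose transporter (2.0). Slc16a3, Slc16a7 and Slc2a4 had no peak inside or within 5 kb. Of 13 genes that switch flux or carry pyruvate into mitochondria, 3 had a boundary peak (23.1%). They were Txnip, an inhibitor of glucose uptake, with 3.59, and Mpc2 of the mitochondrial pyruvate carrier with 2.59. The third was Tigar, on chromosome 6, with 2.41. Mpc1, the partner of Mpc2 in the carrier, had no peak, nor did the pyruvate dehydrogenase kinase genes Pdk1 and Pdk2. The peak of Mpc2 was also within 1 kb of a boundary of Dcaf6, so by boundaries it cannot be assigned to 1 gene of the pair.

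In the pentose phosphate pathway 2 of 7 genes had a boundary peak (28.6%), where 18.8% of all protein-coding genes did. They were Pgls (2.27) and Rpia (2.0), on chromosomes 8 and 6, and G6pdx, Pgd and Rpe had no peak. Of the protein-coding genes on chromosomes 8 and 6, 58.2% and 43% had a boundary peak. Of 20 genes of pyruvate dehydrogenase and the tricarboxylic acid cycle 4 had a boundary peak (20%). The highest were Sdha (3.13) and Suclg2 (3.09), subunits of succinate dehydrogenase and succinyl-CoA ligase, and Dld (2.0). Suclg2 lies on chromosome 6. Dlat and Dlst had no peak. Of 15 genes of gluconeogenesis and glycogen 2 had a boundary peak (13.3%), Gys1 (2.04) and Gbe1 (1.82), and Fbp1, Fbp2 and G6pc had no peak. Of 10 genes that make hexosamine and N-glycan precursors, which also draw on hexose phosphates, 5 had a boundary peak (50%). Of these 5, the highest were Dpagt1 (4.18), Gfpt1 (3.09), the first enzyme of the hexosamine pathway, and Uap1 (2.45). Gfpt1 also lies on chromosome 6. Gmppa, Gmppb and Mpi had no peak. The peak of Dpagt1 was also within reach of a boundary of the histone gene H2ax, and those of Slc2a1, Bsg, Sdha and Gys1 were shared in the same way with Gm52706, Gm25794, Ccdc127 and Ftl1, so they cannot be assigned to 1 gene of each pair.

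**Figure D5:**
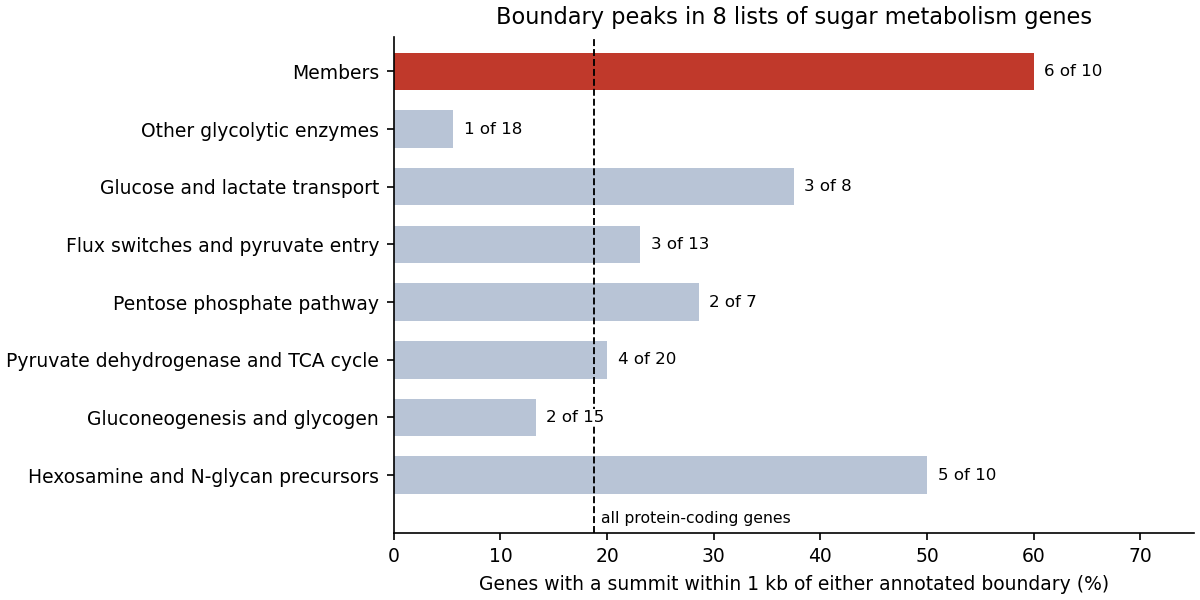
Share of genes that had a boundary peak (x axis, %), in the 10 members and 7 lists of related genes; the count stands beside each bar and the dashed line is the share of all protein-coding genes (18.8%). The members stand at 60% and the 18 other glycolytic enzymes at 5.56%.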

How the data were processed

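Chromatin of E14 cells was immunoprecipitated through the HA tag of induced NELFA. Trim Galore 0.4.2, Bowtie2 2.2.9, SAMtools 1.4, MACS2 (version not given) and mm10 are named in the submitters' processing notes. The sources used here do not give how libraries were combined, the settings of the peak call or the treatment of reads that align to several places. All peak names contain R1234 and MAPQ0, and no source used here explains either tag. The deposited list holds linear fold ratios, −log10 of q-values (at least 1.31), a score and summit offsets. Its depth is unknown, and the precision of a fold could not be computed.

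Summits (interval start plus offset, counted from 1) were placed against the RefSeq gene table and the promoter table of GRCm38.p6, which gives strand and one or more starts for 17492 of 21887 protein-coding genes. Counts were set beside the share over all protein-coding genes, with no test, as planned, since the list has no replicates. The members and lists were chosen with earlier results of these data known. The text names all members, and of each other list up to 3 genes with the highest boundary fold and up to 3 without any peak in alphabetical order; Pgk1, Pgk2 and Pgam2 were named after their values were seen, and some genes that the rule names are not reported here. The scoring code was tested on simulated data. The count at listed starts was planned as an alternative, and its own alternatives were added after the data were seen. Alternatives were other windows, stricter peaks, interval overlap, and leaving out chromosomes 6 and 8. Python 3.11.15, numpy 2.4.6, pandas 2.3.3 and matplotlib 3.10.9 were used.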

Additional observations from a re-analysis of the deposited data

How the results depend on the processing

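No paired analysis was possible because the list holds no value for a single library, and for the same reason no replicate could be left out. The count of 6 members with a boundary peak was 4 with a window of 500 bp, 7 with 2 kb, 5 without peaks under the median fold, 5 without peaks under a −log10 q of 4, and 6 by overlap of the interval. Without chromosomes 6 and 8 it was 3 of the 6 members that remain, since 4 members are left out. With the window of 500 bp, Gapdh was counted only through its weak peak of fold 1.82 and −log10 q 1.56. The summit of its peak of fold 4.99 lay 894 bp inside the gene. The count of 7 at starts, under settings chosen after the data were seen, was 7 within 250 bp, 6 within 100 bp (without Gapdh), 6 with either stricter peak set (without Ldha), and 5 of 6 without chromosomes 6 and 8. The other glycolytic enzymes had 2 boundary peaks with a window of 2 kb in place of 1. Of all protein-coding genes, 16.1% had a boundary peak with a window of 500 bp, 21.8% with 2 kb and 19.2% by overlap. This share was 12.4% under the limit on fold, 9.81% under the limit on q and 15.4% without chromosomes 6 and 8. Of those with a listed start, 14.5% had a start peak within 250 bp and 7.67% within 100 bp. The share within 1 kb was 12.6% under the limit on fold, 9.96% under the limit on q and 15.7% without chromosomes 6 and 8. Folds within 1 step of 0.0454 of each other, and peaks near the lowest fold, cannot be ordered. The step is the resolution of the list and not an error. Folds farther apart have no error estimate either, and their order was not tested.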
